A study of Mus musculus with 8 samples.

Results

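Stefins and cystatins are inhibitors of cysteine proteases, and 8 of their genes were followed in the heart after myocardial infarction (MI): Cstdc4, Cstdc5, Stfa1, Stfa2, Stfa2l1, Stfa3, Cstb and Cst3. They were chosen by name, because Cstdc4 and Cstdc5 stood among the largest rises on these arrays, so their own differences between the groups are given as a description without a test. Each of the 8 genes had 1 probe designed on its RefSeq transcript, and the array named 20145 genes in this way among its 55681 probes that are not controls. All 8 belonged to the 34038 probes retained, those with a signal well above background in 4 or more of the 8 mice. The probes of 7 members were well above background on all 8 arrays, and that of Stfa1 on 6, namely those of the 4 MI mice and of 2 sham-operated mice.

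The arrays measured total RNA from the ventricles of adult male mice with the genetic background C57BL\6, harvested 24 hours after surgery. In 4 MI mice the anterior interventricular artery was permanently occluded, and 4 sham-operated mice had the same operation with no ligature around the artery. Each mouse had an array of its own, in 1 colour, on 1 shared slide whose 2 rows held 2 mice of each group. Per array, the spots well above background made up 58.6% to 66.4%, and no member was saturated on any array. All 8 cardiomyocyte markers examined, such as Myh6 and Tnnt2 of the sarcomere, were well above background on every array, and 0 of them were called different between the groups (1 was lower in MI mice at an unadjusted p under 0.05). The tissue was measured whole, so that fewer cells of a type and less RNA per cell cannot be told apart.

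Cystatins bind in the active site of papain-like proteases such as the lysosomal cathepsins and hold them inactive. The stefins are the family members that stay inside the cell. In the mouse the stefin A gene is present in many copies, named Stfa, Csta or Cstdc, which lie side by side on chromosome 16 and are known from neutrophils, bone marrow and epidermis. Stefin B (Cstb) is made in most cell types, and cystatin C (Cst3) is secreted by most cells and circulates in blood.

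The chromosome 16 copies are alike in sequence around their transcription starts, which is why part of each promoter is shown first. Promoters from RefSeq (build GRCm38.p6, 250 bases before the transcription start to 50 after it) were at hand for 7 members, that is all but Cstb. Over the 15 pairs that the 6 cluster members form, aligned promoters were identical at 67.8% to 90.5% of positions, with a median of 75.1%, and the closest pair was Stfa2l1 and Stfa2. The promoter of Cst3 was identical to theirs at 40.2% to 46.3% of positions. The longest run of letters present in all 6 cluster promoters had 13 bases, and the 100 bases that end with it are given below, 5′ to 3′ on the strand of the gene, with that run in capitals. They cover chr16:36156688-36156787 (plus strand) for Stfa2l1, chr16:36184093-36184192 (plus) for Cstdc4, chr16:36277028-36277127 (plus) for Stfa1, chr16:36367570-36367669 (minus) for Cstdc5, chr16:36408383-36408482 (minus) for Stfa2 and chr16:36455414-36455513 (minus) for Stfa3.
Stfa2l1: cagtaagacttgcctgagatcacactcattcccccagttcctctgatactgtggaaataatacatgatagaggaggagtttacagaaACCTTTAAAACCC
Cstdc4: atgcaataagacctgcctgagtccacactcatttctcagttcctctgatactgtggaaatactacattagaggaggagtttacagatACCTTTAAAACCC
Stfa1: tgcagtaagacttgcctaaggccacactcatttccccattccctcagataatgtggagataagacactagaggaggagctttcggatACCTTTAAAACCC
Cstdc5: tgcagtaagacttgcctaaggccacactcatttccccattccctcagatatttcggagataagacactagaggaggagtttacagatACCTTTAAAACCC
Stfa2: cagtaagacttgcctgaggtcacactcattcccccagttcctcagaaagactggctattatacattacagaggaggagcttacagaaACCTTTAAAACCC
Stfa3: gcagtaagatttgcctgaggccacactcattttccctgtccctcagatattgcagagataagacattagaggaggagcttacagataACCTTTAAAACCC

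The last base of the run lay 24 bases before the annotated start in Stfa2l1, 22 in Stfa3, 21 in Stfa1 and 20 in both Cstdc4 and Stfa2, while in Cstdc5 it coincided with the start. Among all 32851 promoters the run was found in 9, or 0.0274%, searched on the strand of the gene. All 9 lie on chromosome 16 and belong to the 6 cluster members and to Csta3, Cstdc3 and Gm7260. Of 3 motifs searched on both strands, GAGGAA (letters bound by PU.1, a factor of myeloid cells) occurred in the promoters of all 7 members and in 28.3% of all promoters. TTGCNNAA, a C/EBP-like motif, occurred in Cstdc5 and Stfa1 and in 10.8% of all promoters. TATAAA occurred in 0 of the 7 and in 13.6% of all promoters. A match is a description of these letters only.

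Cstdc4, a stefin A-like gene of the cluster, had the largest rise among the members. Its processed intensities (background-subtracted signals of the scanner software, not yet normalized between arrays) were 3940, 8801, 6862 and 5421 in MI mice 1 to 4, against 234, 163, 179 and 166 in sham-operated mice 1 to 4. Every MI mouse was far above every sham-operated mouse. After normalization with the spike-in RNA, which places the values on a log2 scale, the means were 12.52 ± 0.43 in MI mice and 8.66 ± 0.11 in the sham group (SD, n = 4 each), a log2 fold change of 3.86 (standard error, SE, 0.19) or 14.6-fold. Among the 34038 probes this was the 4th largest rise.

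Cstdc5, the other Cstdc gene of the set, had intensities of 2644, 5710, 4558 and 3463 in MI mice 1 to 4 and of 231, 127, 141 and 150 in the sham-operated mice. The groups were again wide apart, with a log2 fold change of 3.38 (SE 0.19), or 10.4-fold, the 5th largest rise. Stfa2l1, a stefin A2-like gene, had intensities of 1964, 4631, 3674 and 2593 in MI mice and 206, 119, 124 and 118 in the sham group. Its log2 fold change was 3.13 (SE 0.21), or 8.73-fold, the 8th largest rise. For Stfa2, which codes for a stefin A protein, the intensities were 1217, 2947, 2112 and 1544 in MI mice and 297, 168, 189 and 133 in the sham group. The log2 fold change was 2.26 (SE 0.21), or 4.80-fold, with no overlap between the groups.

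The remaining 2 cluster members differed less between the groups on this scale. Stfa1 had intensities of 144, 418, 265 and 150 in MI mice and 39.8, 22.2, 9.68 and 9.91 in the sham group, and in sham-operated mice 3 and 4 it was not well above background. Its log2 fold change was 0.90 (SE 0.15). Stfa3 had intensities of 229, 330, 211 and 325 in MI mice and 156, 85.5, 99.1 and 92.1 in the sham group. Its MI mice lay close together, at 8.85 ± 0.06 after normalization against 8.33 ± 0.12 in sham-operated mice, a log2 fold change of 0.53 (SE 0.07). The groups did not overlap for either gene.

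Outside the cluster the differences were small. The broadly made stefin B gene, Cstb, had intensities of 8192, 8161, 7549 and 9560 in MI mice and 6766, 5324, 4387 and 4642 in the sham group. After normalization the groups did not overlap and the log2 fold change was 0.50 (SE 0.09), or 1.41-fold, but after scaling each array to its 75th percentile sham-operated mouse 2, at 12.77, passed MI mouse 3, at 12.75. Cst3, the gene of secreted cystatin C, ran from 105077 to 127104 in MI mice, against 83298 to 125590 in the sham group. Its groups overlapped, with a log2 fold change of 0.08 (SE 0.14), and after scaling to the 75th percentile the value was -0.04.

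**Figure D1:**
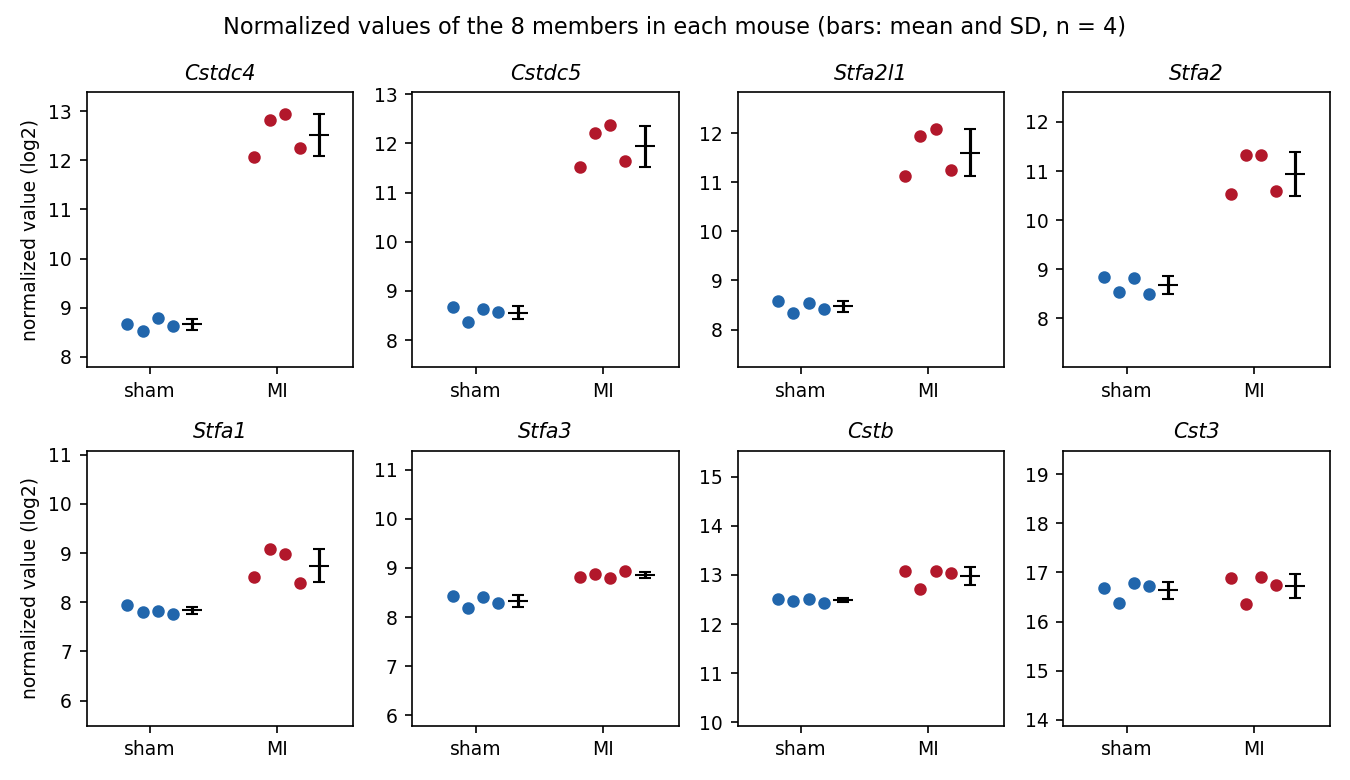
Each panel plots the normalized log2 value of 1 member (y axis, spanning the same number of log2 units in every panel) in the sham-operated mice (blue) and MI mice (red), 1 point per mouse, with the mean and SD of the 4 mice beside the points. The MI mice of Cstdc4, Cstdc5, Stfa2l1 and Stfa2 lie far above the sham-operated mice, those of Stfa1, Stfa3 and Cstb lie above them by less, and those of Cst3 overlap with them; levels of different probes are not comparable.

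In all, 4 of the 8 members (Cstdc4, Cstdc5, Stfa2l1 and Stfa2) were past a fold of 2 and an adjusted p of 0.05 in the fit of limma over all probes, where 0.94% of the 34038 probes were called higher in MI mice and 0.0382% lower. The groups did not overlap for 7 members, all higher in MI mice, and for 6.65% of all probes in that direction. The median log2 fold change was 1.58 over the 8 members, 2.69 over the 6 of the cluster and 0.03 over all probes. Since the members were picked from this contrast, nothing is read from these counts. The member nearest to the fold threshold on its upper side was Stfa2 at 2.26, and on its lower side Stfa1 at 0.90.

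The size of these differences depended on the normalization. The spike-in fit gave each array an additive constant between 166 and 257, which holds back the fold of any probe whose signal is not well above it, and the sham-operated values of the 6 cluster members were near or below those constants. In the normalized values of the authors, whose constants ran from 3.16 to 19.6, the log2 fold changes were 4.77 for Cstdc4, 4.37 for Cstdc5, 4.19 for Stfa2l1, 3.05 for Stfa2 and 2.37 for Stfa1. That is 27.3-fold for Cstdc4, and Stfa3 was 2.14-fold higher. By these values 6 of the 8 members were past the same 2 thresholds, as were 2.58% of all probes in that direction. Stfa1 moved the most, from 0.90 to 3.53 when the arrays were only shifted by the spike-in signals, and it stood above Stfa2 under that shift (3.13), under scaling to the 75th percentile (3.41 against 3.01) and under quantile normalization (3.35 against 3.00), but below it in the other values. Cstdc4, Cstdc5 and Stfa2l1 kept this order under all 6 normalizations shown. Cstb stayed between 0.39 and 0.51.

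**Figure D2:**
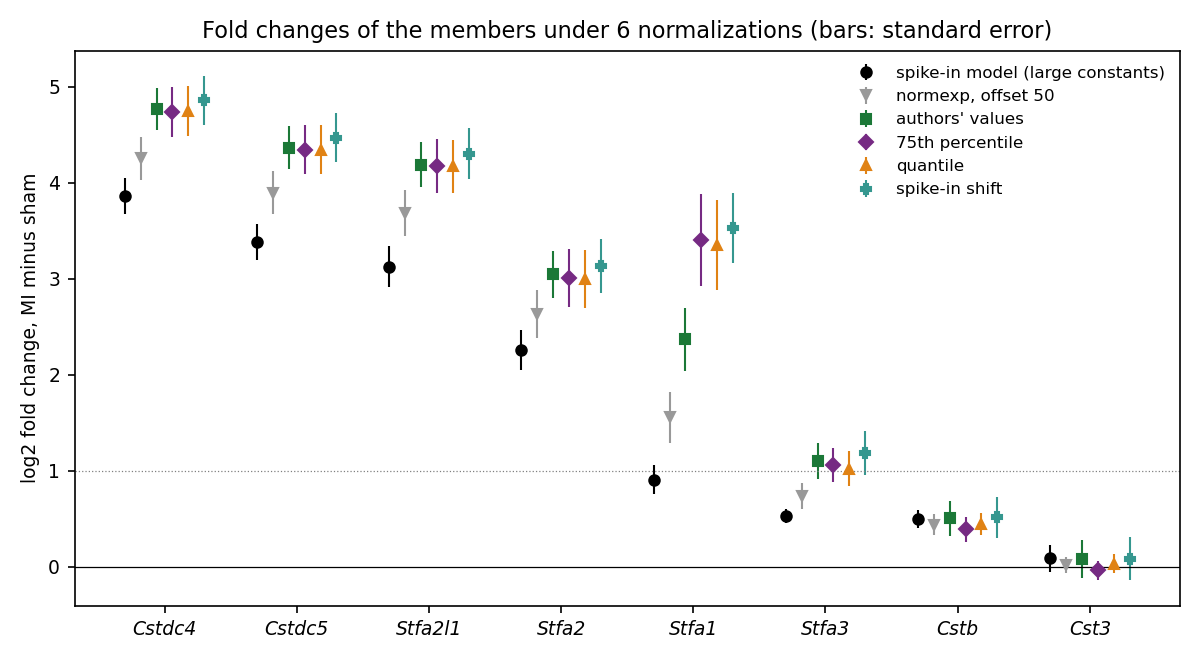
Log2 fold change of MI over sham (y axis) of each member under 6 ways of normalizing the arrays, with standard errors from limma; the dotted line marks a fold of 2. The values of Stfa1 spread from 0.90 to 3.53, those of Cstdc4 from 3.86 to 4.86, and Cstb and Cst3 stay below a fold of 2 in all 6.

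The rows of the slide gave much the same values. With the 2 MI and the 2 sham-operated mice of row 1 the log2 fold change was 3.84 for Cstdc4, 3.35 for Cstdc5, 3.07 for Stfa2l1 and 2.23 for Stfa2, and with those of row 2 it was 3.88, 3.41, 3.18 and 2.30. Stfa1 gave 0.92 in row 1 and 0.89 in row 2, Stfa3 gave 0.55 and 0.51, and Cst3 gave 0.09 and 0.07. Cstb gave 0.41 in row 1, which holds MI mouse 2, and 0.59 in row 2. Leaving out 1 mouse at a time moved Cstdc4 between 3.72 and 4.01 and Stfa2 between 2.13 and 2.40. Stfa1 passed 2-fold (1.02) only without MI mouse 4, and Cst3 moved between -0.00 and 0.20.

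Along chromosome 16 the annotation puts 12 protein-coding genes from Csta1 to Stfa3, of which 6 are members and 10 had a probe. The neighbours that are no members were looked up after the members' values were seen. Csta2, between Csta3 and Stfa1, had intensities of 1145 to 2397 in MI mice and of 78.5 to 123 in sham-operated mice. Its log2 fold change was 2.42 (SE 0.17), and its promoter did not hold the 13-base run. Csta3 had intensities of 70.8 to 166 in MI mice and of 4.95 to 14.6 in sham-operated mice, was well above background in the 4 MI mice and 1 sham-operated mouse, and had a log2 fold change of 0.56 here, 2.27 in the values of the authors and 3.45 after scaling to the 75th percentile. On that last scale Csta2 was at 3.72. The probes of Csta1 and Cstdc6 were well above background in 0 of the 8 mice, with intensities of 2.87 to 3.29 and of 2.36 to 3.77. Cstdc3 and Gm7260, whose promoters hold the run, had no probe named by their transcripts.

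**Figure D3:**
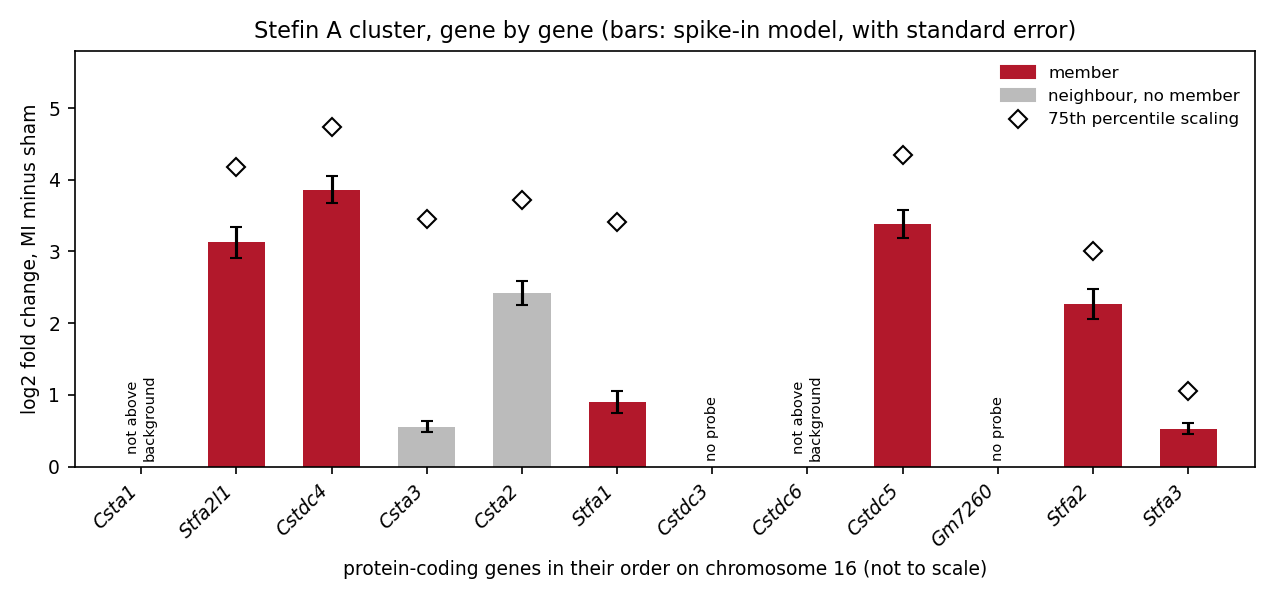
Log2 fold change of MI over sham (y axis) for the protein-coding genes of the stefin A cluster in their order on chromosome 16 (x axis, not to scale), with bars for the spike-in model (members red, neighbours grey, with standard errors) and diamonds for scaling to the 75th percentile. The bars of Csta3 (0.56) and Stfa1 (0.90) are low while their diamonds (3.45 and 3.41) lie beside that of Csta2 (3.72), Stfa3 is the lowest member of the cluster on both scales, and Csta1 and Cstdc6 were never well above background.

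Gene copies with alike transcripts can share labelled RNA between their probes (cross-hybridization). The deposited files and the reference used here give neither the 60-base probe sequences nor the transcripts, so the overlap of each probe with the other copies was not tested. The signals of Cstdc4, Cstdc5, Stfa2l1, Stfa2, Stfa1 and Stfa3, and those of Csta2 and Csta3, are therefore uncertain as measures of single genes. What can be stated is how far the probes moved apart. In every MI mouse the rise of Cstdc4 over its own sham mean exceeded that of Cstdc5, by 0.44 to 0.51 on the log2 scale, and that of Cstdc5 exceeded that of Stfa2l1, by 0.20 to 0.31. The rise of Stfa2l1 exceeded that of Stfa2 by 0.81 to 0.95. Cstdc4 and Stfa3 differed by 2.91 to 3.82, a gap that varied from mouse to mouse, and Stfa1 was above Stfa3 in 3 of the 4 MI mice. The gaps depended on the normalization, most of all those that involve the dim Stfa1 probe. After scaling to the 75th percentile Stfa1 exceeded Stfa3 in all 4 MI mice, by 1.51 to 2.97, and Stfa2 in all 4, and its mean gap to Cstdc4 fell from 2.96 to 1.33. On that scale Cstdc4 exceeded Cstdc5 by 0.36 to 0.43, and Cstdc5 exceeded Stfa2l1 by 0.11 to 0.23. The probes of Csta1 and Cstdc6 stayed at background in the same mice.

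Across the 8 mice, the profile of Stfa2l1 was nearest to that of Cstdc5, with a root mean square difference of 0.19 in log2 deviation from the sham mean, and that of Cstdc4 was 0.34 from that of Cstdc5. Stfa3 and Cstb were 0.14 apart on this scale and 0.52 after scaling to the 75th percentile. MI mice 2 and 3 were the highest of the 4 in 5 of the 6 cluster members, all but Stfa3, whether the arrays were normalized with the spike-in model or scaled to the 75th percentile. The order of these 2 mice depended on the scaling, with MI mouse 3 first for Cstdc4 after the former (4.29 against 4.16 above the sham mean) and MI mouse 2 first after the latter. MI mice 1 and 4 reached 3.41 and 3.59. The same pair was highest in 36.9% of the 320 probes called higher after the former and in 56.6% after the latter.

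Among 14023 genes with a symbol and a probe well above background on all 8 arrays, the 5 whose profile over the 8 mice was nearest to that of Cstdc4 were Hspa1a, Retnlg, Ankrd2, Gdf15 and S100a8. Their root mean square differences were 0.30, 0.35, 0.54, 0.61 and 0.63, and the measure follows the size of the change as much as its shape. The ranks are those of the spike-in model and may depend on the scaling. After scaling to the 75th percentile the log2 fold change was 4.74 for Cstdc4, 4.15 for Retnlg and 2.90 for S100a8. Hspa1a, a heat shock protein with a near-identical copy in the genome, had a log2 fold change of 3.96 (SE 0.37), and Ankrd2, a stretch-responsive muscle protein, one of 3.28 (0.26). Gdf15, a stress-induced cytokine, had 3.32 (0.22). Retnlg and S100a8 are known from neutrophils. In Gdf15 MI mouse 1 was the highest of the 4, whereas it was the lowest in Cstdc4. Its lead in Gdf15 was narrow, at 3.60 against 3.54 in MI mouse 2, and may depend on the scaling. MI mouse 2 was the lowest MI mouse in 87.3% of kept probes on this scale, and in 20.8% after scaling to the 75th percentile.

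Cysteine proteases were listed next, namely the papain-like cathepsins and legumain, which cystatins are known to inhibit, and the calpains with their regulatory small subunit, which stefins and cystatin C are not known to inhibit. Of these 23 genes, 22 had a retained probe, and 0 passed the thresholds in either direction, or an adjusted p of 0.05 at any fold, while 2 were higher and 1 lower at an unadjusted p under 0.05. Significance analysis of microarrays also called 0 of them, and 0 of the inhibitors that follow. The count at any fold depended on the setting, since after scaling to the 75th percentile the adjusted p was 0.0325 for Ctsh and 0.0233 for Ctsl, both lower, and 0.0462 for Ctsz, higher, with folds below 2. These 3 also passed after quantile normalization and normexp, Ctsh in significance analysis of microarrays (0.0399), Ctsl with the replicate number as a block (0.0415) and Ctsz without MI mouse 2 (0.0435). Their median log2 fold change was 0.02, beside 0.03 over all probes. Ctss, the cathepsin of antigen presentation, had intensities of 4895, 5773, 4643 and 7900 in MI mice and 5051, 3923, 3576 and 2823 in the sham group. After normalization its MI mice all lay above its sham-operated mice, as for 6.65% of all probes. The log2 fold change of Ctss was 0.41 (SE 0.14, adjusted p = 0.185). Ctsz, a cathepsin with carboxypeptidase activity, had 0.61 (0.20, adjusted p = 0.171). Ctsh, an aminopeptidase of the lysosome, had -0.42 (0.13, adjusted p = 0.145), and after normalization its groups did not overlap, with the MI mice lower. Ctsb and Ctsl, abundant lysosomal cathepsins, had 0.24 (adjusted p = 0.620) and -0.32 (adjusted p = 0.371). Lgmn, the asparaginyl endopeptidase legumain, had 0.28 (adjusted p = 0.424). Ctsc, which activates the serine proteases of granules, had -0.08 (adjusted p = 0.939), and Ctsf, Ctsk, Ctso and Ctsw lay between -0.13 and 0.10. The calpains and their small subunit supplied the other 11 measured genes, none past the thresholds.

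Of 28 other genes that code for cysteine protease inhibitors or carry cystatin domains, 16 had a retained probe. Again 0 passed both thresholds. At any fold 2 had an adjusted p under 0.05, both higher in MI mice, where 3.38% of all probes passed it higher and 0.355% lower, and 3 were higher and 1 lower at an unadjusted p under 0.05. These 2 were Ctla2a and Ctla2b, whose products resemble the propeptide of cathepsin L, and they are named because the count was so small. Ctla2b had intensities of 12515, 17467, 11349 and 12962 in MI mice and 7511, 7584, 6423 and 6954 in the sham group. Its log2 fold change was 0.73 (SE 0.10, adjusted p = 0.00685), and that of Ctla2a was 0.68 (0.13, adjusted p = 0.0280). After scaling to the 75th percentile neither passed (adjusted p = 0.0838 for Ctla2b and 0.134 for Ctla2a). Since their sequences are close, their signals too may not be separate. Cst6, the secreted cystatin E/M, had -0.45 (0.12, adjusted p = 0.0814), and after that scaling -0.64 (adjusted p = 0.0274), and Cast, the calpain inhibitor calpastatin, had 0.34 (0.14, adjusted p = 0.277).

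Markers of neutrophils were mostly higher in the MI mice as well. Of 16 markers 15 were measured, and 12 were called higher in MI mice and 0 lower, with a median log2 fold change of 1.72. Their summed intensity, not normalized between arrays, ran from 304939 to 475549 in MI mice, against 79115 to 148324 in the sham group. S100a9 alone had mean intensities of 157811 and 19795, and no marker was at background in either group. Much of the sham sum came from Csf3r and Lcn2, which were not called. Their means were 46686 and 54342 in MI mice and 39919 and 34040 in the sham group. The median deviation of these markers from the sham mean was 1.29, 1.90, 1.91 and 1.69 in MI mice 1 to 4. After scaling to the 75th percentile it was larger, at 2.37, 3.43, 2.69 and 2.31, so its size and shape depended on the normalization. Marker by marker, MI mouse 4 was the lowest in 6 of the 12 called after the spike-in model, MI mouse 1 in 5 and MI mouse 2 in 1. After scaling to the 75th percentile MI mouse 1 was the lowest in 8 and MI mouse 4 in 4. After the spike-in model 3 of the 15 markers (20%) put the MI mice in the order of Cstdc4, beside 17.2% of the 320 probes called higher. After scaling to the 75th percentile the order of Cstdc4 was another, which S100a9, Clec4d, Fpr2, Trem1 and Hdc shared. MI mice 2 and 3 were the highest in 9 of the 12 called markers after the spike-in model and in 8 after scaling to the 75th percentile, that is 75% and 66.7%, beside 36.9% and 56.6% of all probes called higher. The part of neutrophils in the values of the members was not tested.

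Retnlg, a resistin-like protein, had intensities of 13121, 23560, 18094 and 7597 in MI mice and 1006, 646, 458 and 642 in the sham group. Its log2 fold change was 3.92 (SE 0.32, adjusted p = 0.000540). S100a8 and S100a9, the subunits of calprotectin, had 2.99 (0.18, adjusted p = 0.000164) and 2.78 (0.15, adjusted p = 0.000135), and Il1r2, the decoy receptor of interleukin 1, had 2.73 (0.16, adjusted p = 0.000135). All 4 rose in every MI mouse beyond every sham-operated mouse. The markers not called were Csf3r, Lcn2 and Trem1, at 0.09, 0.65 and 0.91.

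Of 8 markers of neutrophil precursors, all measured, only Chil3 was called, at 2.64 (SE 0.27, adjusted p = 0.00123), and the median was 0.09. After scaling to the 75th percentile 3 were called, with Ngp (adjusted p = 0.00393) and Ltf (adjusted p = 0.0252) beside Chil3, where Ngp was well above background in all 4 MI mice and 0 sham-operated mice, and Ltf in 4 and 2. Of 13 monocyte and macrophage markers 11 were measured, since Cd68 and Ly6c2 had no probe named by a RefSeq transcript. The authors did report Cd68 as higher in MI mice on these arrays. Cd14, the co-receptor for bacterial lipopolysaccharide, was called higher at 2.08 (0.29, adjusted p = 0.00610), 0 were lower, and the median was 0.15. Their summed intensity ran from 55706 to 72004 in MI mice, against 39512 to 61665 in the sham group, so that these ranges overlapped. The sums were not normalized between arrays. Much of each came from the brightest of 3 kept Itgam probes, with means of 31669 in MI mice and 26061 in the sham group. The other kept Itgam probes are not part of these counts and sums. The authors listed Itgam among their differentially expressed genes, so these counts depend on the choice of probe. In the values of the authors 2 of these markers were called, Cd14 and Ccr2, a chemokine receptor of monocytes, which was at 0.59 here (adjusted p = 0.0240).

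Keratinocytes, the other cells known for stefin A, were represented by few markers. Of 12 markers 5 were measured, 6 had a probe that was not retained and 0 were called (1 was lower at an unadjusted p under 0.05), and the cornified envelope gene Ivl and the keratin genes Krt1 and Krt15 were among those not retained. The summed intensity of those measured, not normalized between arrays, ran from 3005 to 3771 in MI mice, against 2717 to 4515 in the sham group. Most of it came from Trp63 alone, with means of 2889 in MI mice and 2640 in the sham group. Of the markers of T cells, B cells, mast cells, fibroblasts and endothelial cells 3, 4, 4, 6 and 4 were measured, and 0 were called in each list. The groups did not overlap, with the MI mice higher, for 3 markers of B cells and 1 of T cells, beside 6.65% of all probes. At an unadjusted p under 0.05, 1 marker each of T cells, B cells and endothelial cells was higher in MI mice. Their medians were 0.18, 0.09, -0.14, -0.39 and 0.24, and that of the cardiomyocyte markers was -0.07. Cd3d of T cells, a dim probe, was at 0.18 here, 0.90 in the values of the authors and 0.999 after scaling to the 75th percentile. Its adjusted p was 0.180, 0.00797 and 0.00938. Cd79b of B cells was at 0.31 here (adjusted p = 0.0780) and 0.73 in the authors' values (0.0369). After that scaling Pecam1 was higher (0.54, adjusted p = 0.0309). Krt10 and Pln were lower (-0.84 and -0.68, adjusted p = 0.0181 and 0.00741).

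**Figure D4:**
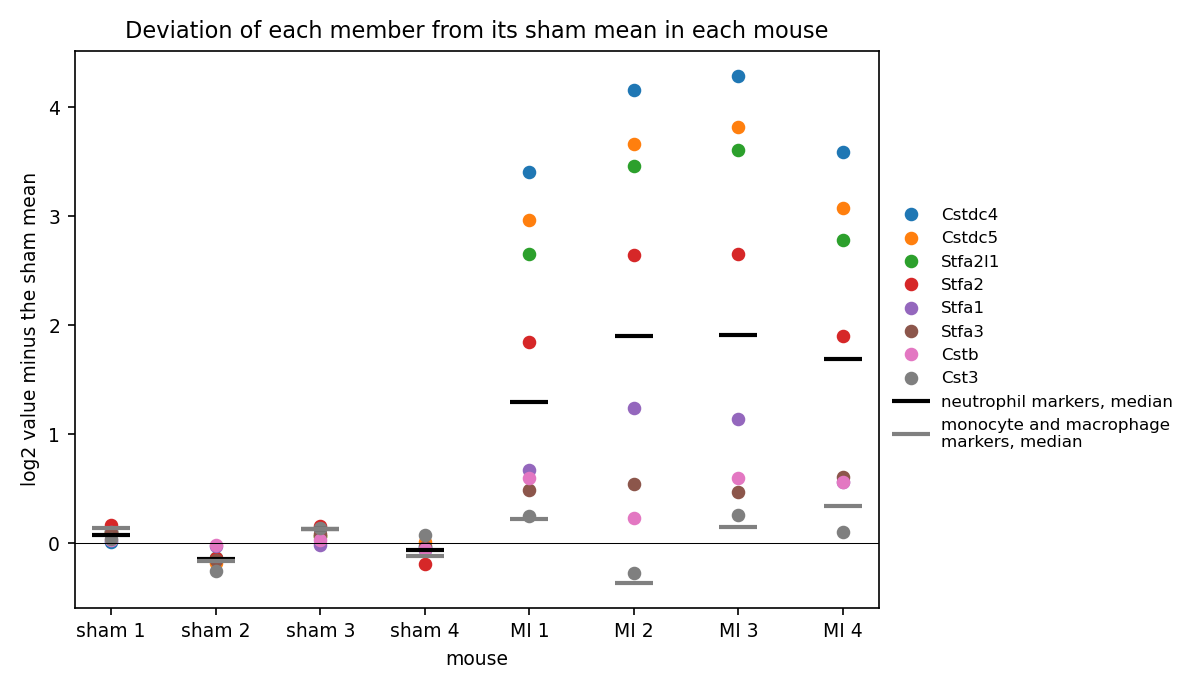
Log2 value minus the mean of the sham-operated mice (y axis) of each member in each of the 8 mice (x axis), with the median of the neutrophil markers as a black bar and that of the monocyte and macrophage markers as a grey bar. In MI mice 2 and 3 Cstdc4 reached 4.16 and 4.29 and the neutrophil median 1.90 and 1.91. After scaling to the 75th percentile that median was 3.43 and 2.69 in these mice, and the log2 fold change of Cstdc4 was 4.74. MI mouse 2 lies low in Cst3 and Cstb on the plotted scale, but after scaling to the 75th percentile its Cst3 value was the highest of the MI mice.

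**Figure D5:**
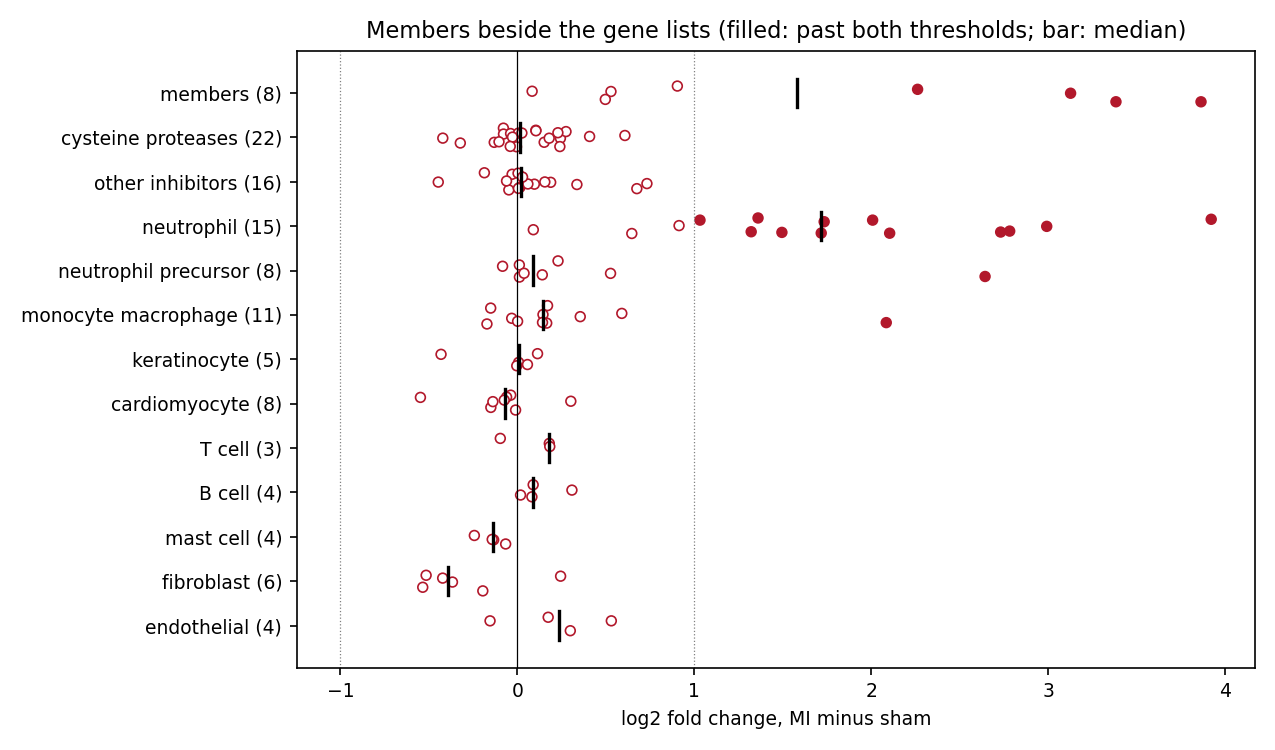
Log2 fold change of MI over sham (x axis) for the 8 members and for the measured genes of each list (rows, with the number of genes), filled where the probe passed a fold of 2 and an adjusted p of 0.05; the black bar is the median and dotted lines mark a fold of 2. The filled points lie among the members (4), the neutrophil markers (12), Chil3 and Cd14, and none lies among the proteases or the other inhibitors.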

How the data were processed

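RNA was labeled in 1 colour and hybridized to mouse SurePrint G3 arrays. The authors deposited intensity values as the scanner software wrote them (Feature Extraction 11.0.1.1): each processed signal had its local background subtracted and spatial trends removed, with no step between arrays. The authors also deposited log2 values, which they normalized on the spike-in probes with limma and vsn after removing spots not well above background.

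Here the arrays were normalized with the vsn model, programmed anew and fitted on the spike-in signals (7 probes, 234 spots). Outlier spots were left out, the spots of a probe averaged, and 34038 probes kept whose signal was well above background in 4 or more mice. The groups were compared with limma 3.58.1 under R 4.3.3 with no covariate, and p-values were adjusted by Benjamini-Hochberg over all kept probes. A probe was called at a fold over 2 and an adjusted p under 0.05. The scripts were tested on simulated data first. Other scalings, filters, tests and blocks were run as alternatives in Python 3.11.15 and R, and promoters were aligned with Biopython 1.88.

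Symbols came from RefSeq (GRCm38.p6) through transcript accessions, which named 26582 probes. The array's own annotation is of another build, so no gene coordinates of it are given. The brightest kept probe stood for a gene of a list. The members and the lists were chosen with earlier results of these data known. Named are the members, the cathepsins and Lgmn, up to 4 called genes of each other list, and the 5 genes nearest to Cstdc4 in profile. Ctla2a, Ctla2b, Cst6, Cast, Ccr2, Ngp, Ltf, Itgam, Trp63, the uncalled neutrophil markers and the chromosome 16 neighbours were named after their values were seen. So were Cd3d, Cd79b, Pecam1, Krt10, Pln, Clec4d, Fpr2 and Hdc. Precision is limited by the 8 arrays, and p-values measure the spread between these mice.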

Additional observations from a re-analysis of the deposited data

Results flagged for a closer look

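In 4 of the 58 groups of 4 mice examined (every member, every gene named by rule and Csta3, the MI and the sham group apart), 1 mouse stood apart from the others by a gap that Dixon's test puts beyond its 95% limit, and chance alone would give this in about 1 group in 20. Among the members this was Cstb, where MI mouse 2 had 12.72 and the other MI mice lay between 13.04 and 13.08. In Ctsb, MI mouse 2 had 14.46 and the others lay between 15.00 and 15.04. MI mouse 2 was the lowest MI mouse in 87.3% of all kept probes after the spike-in model and in 20.8% after scaling to the 75th percentile, where MI mouse 3 was the lowest for both Cstb and Ctsb. In Cd14, MI mouse 1 had 11.82 and the others lay between 12.77 and 12.87, and it was the lowest under both scalings. After scaling to the 75th percentile it had 11.50 and the others were more spread, from 12.44 to 13.19. In Ctsc, sham-operated mouse 3 had 10.70 and the others lay between 10.29 and 10.34. After scaling to the 75th percentile it was at 10.37, below sham-operated mouse 2 at 10.43, and no longer stood apart.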

How the results depend on the processing

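With 333 probes called here, 1447 were called after scaling to the 75th percentile, 1520 after a spike-in shift without additive constants, 1414 after quantile normalization, 1007 in the values of the authors and 515 after normexp with an offset of 50. Leaving out 1 mouse gave between 262 and 382. Under the spike-in shift 1 cysteine protease, Capn15, was called higher, whose probe was well above background in 1 of the 4 sham-operated mice, and under every other setting 0 were. The number of members past the thresholds was 4 to 6 over all settings, and that of neutrophil markers called higher 10 to 13. The log2 fold changes of the 6 cluster members were larger under those 5 normalizations, as given beside the results, and no call of a member was reversed; Cd14 lost its call with the methods' t-test (adjusted p = 0.0535). Same-numbered mice of the 2 groups deviated together with correlations of 0.28, 0.36, 0.09 and 0.00, so the numbers were not taken as pairs, and with the replicate number as a block 341 probes and the same number of members, 4, were called. Dim probes such as those of Stfa1 and Csta3 limit what their folds can say, since part of their sham-operated arrays were at background.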
